A study of Caenorhabditis elegans with 20 samples.

Results

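The 5 superoxide dismutase genes of *Caenorhabditis elegans*, *sod-1* to *sod-5*, were followed across 4 genotypes of adult worms. The genes were taken by their symbol in the array annotation, with every probe set annotated to them. Each of the 5 genes had 1 probe set, and none of these was shared with another gene, among 17118 genes with a probe set of a single symbol. RNA of whole adults was hybridised to 20 Affymetrix whole-genome arrays, 5 for each genotype, and each array stood for a biological replicate grown on 8 plates.

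All 4 genotypes carried *glp-4(bn2)*, which at the higher temperature keeps germ cells from multiplying, and a mutation of *daf-2*. The first genotype joined *daf-16(mgdf50)* to *daf-2(e1370)* and is written *daf-16; daf-2(e1370)* here, and its partner *daf-2(e1370)* had *daf-16* intact. The other pair, *daf-16; daf-2(m577)* and *daf-2(m577)*, had the m577 allele in place of e1370. No genotype with intact *daf-2* or *glp-4* was compared. Larvae hatched at 20 °C, grew at 15 °C, moved to 25 °C once most had reached the last larval stage, and were collected as sterile adults aged 1 day. The product of *daf-2* is the worm's receptor for insulin-like peptides, and the allele m577 is usually counted among its less pleiotropic alleles and e1370 among its more pleiotropic ones. DAF-16 is a FOXO transcription factor, held in the cytoplasm while the receptor signals. The comparisons ask how far the transcripts of these enzymes depend on it when the receptor is impaired.

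Superoxide dismutases turn superoxide, a by-product of respiration, into oxygen and hydrogen peroxide, which catalases and peroxidases then remove. In *C. elegans* the family has copper/zinc enzymes in the cytosol (SOD-1, the main one, and SOD-5), a copper/zinc enzyme that is secreted or bound to the cell surface (SOD-4), and manganese enzymes in mitochondria (SOD-2, the main one, and SOD-3). *sod-3* is a widely used reporter of DAF-16 activity. The probe sets were 192125_s_at for *sod-1*, 192654_at for *sod-2*, 192617_at for *sod-3*, 191998_at for *sod-4* and 190168_at for *sod-5*. *sod-1* and *sod-4* have 2 RefSeq transcripts each, which a single probe set does not separate. Cross-hybridisation between the related genes was not tested.

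All levels are log2 values after Robust Multi-chip Average (RMA) normalization, and every difference is a difference of log2 levels with its standard error (SE) from limma. Levels of different genes were not compared, because probe sets differ in how strongly they bind. The 27 *Bacillus* control probe sets, which match no worm gene, served as a guide to background. The 15 for dap, lys and trp reached at most 6.29 on any array, and the 12 for phe and thr at most 7.15. In bulk RNA, fewer cells of a type and less RNA per cell cannot be told apart. Precision is set by the number of arrays, 5 per genotype.

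Arrays of a genotype were not all alike. Sperm marker genes had mean levels of at least 9.69 on 17 arrays, and were lower on the other 3. These were *daf-16; daf-2(e1370)* replicate 5 with 7.84, *daf-2(e1370)* replicate 4 with 8.60 and *daf-2(m577)* replicate 3 with 7.82. Replicate 2 of *daf-16; daf-2(e1370)* had the lowest mean correlation with the arrays of its genotype, 0.842, and the lowest level of oocyte and germ cell markers, 8.25. Mean levels above the highest *Bacillus* control value were found for 23 of 23 oocyte and germ cell markers, 31 of 38 sperm markers, 11 of 11 intestine, 6 of 9 body muscle, 7 of 11 neuron and 7 of 8 hypodermis markers. None of 6 pharynx markers was above it, though the samples are labelled as whole animals. For the deleted gene, the *daf-16* probe set 175678_at had a level of 6.00 ± 0.62 in *daf-16; daf-2(e1370)*, against 6.97 ± 0.50 in *daf-2(e1370)*. It had 6.43 ± 0.31 in *daf-16; daf-2(m577)*, against 6.98 ± 0.18 in *daf-2(m577)* (SD, n = 5). The differences were -0.98 ± 0.27 (limma, adjusted p = 0.0435) and -0.55 ± 0.27 (adjusted p = 0.391), and none of the other 3 *daf-16* probe sets passed the threshold in either allele. The position of these probe sets relative to the deletion is unknown here, and one outside it checks nothing.

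Without *daf-16*, *sod-3*, *sod-5* and *sod-1* transcripts were lower in animals with the e1370 receptor, and *sod-3* and *sod-1* were lower in animals with the m577 receptor. *sod-3* fell 27-fold in e1370 and 11.8-fold in m577. *sod-5* fell 5.34-fold in e1370, and *sod-1* fell 1.63-fold in e1370 and 1.88-fold in m577. No superoxide dismutase gene was higher without *daf-16* in a test that passed. *sod-2* and *sod-4* did not pass in either allele. Of 5 genes, 3 were called lower in e1370, where 2.40% of all 22548 probe sets were called lower. In m577, 2 of 5 were called lower, where 1.20% of all probe sets were. The threshold for a call was 0.05 for the limma p-value after Benjamini-Hochberg adjustment over all probe sets.

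**Figure D1:**
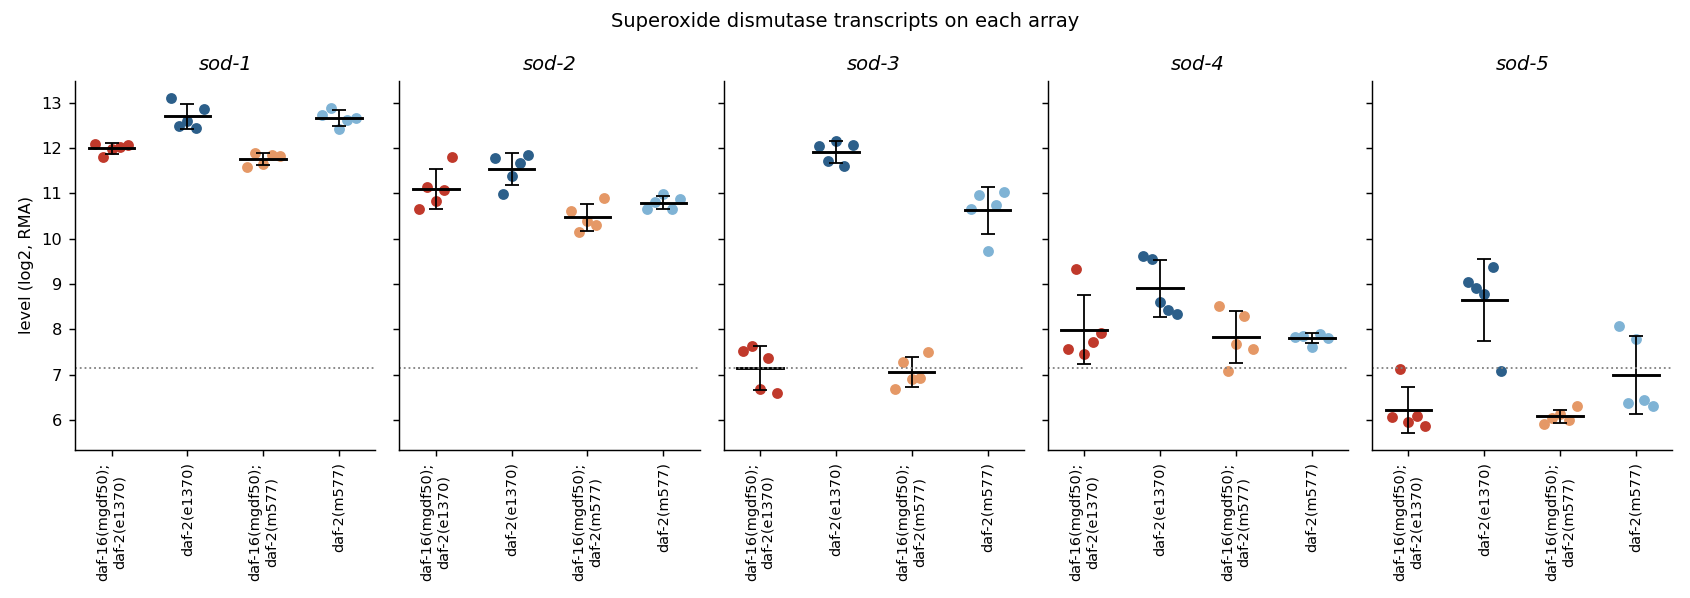
Levels of the 5 superoxide dismutase transcripts (log2, RMA) on each of 20 arrays, by genotype. Points are arrays in the order of replicate 1 to 5, long bars are means, error bars are SD (n = 5), and the dotted line is the highest value of any *Bacillus* control, 7.15. *sod-3* arrays without *daf-16* all lie at or below 7.63 and those with it at or above 9.72. Heights of different panels are not comparable.

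Of the manganese enzymes of mitochondria, *sod-3* had the largest fall of the 5 genes. On the 5 arrays of *daf-16; daf-2(e1370)*, *sod-3* had levels of 7.52, 7.63, 6.68, 7.36 and 6.59, against 12.03, 11.71, 12.15, 11.60 and 12.06 on those of *daf-2(e1370)*. The groups lay far apart, and the lowest array with *daf-16* was 11.60. The difference was -4.75 ± 0.25 (adjusted p = 8.61e-10), a 27-fold lower level (95% CI 18.7 to 38.9), and it ranked 8 from the lowest among 22548 probe sets. With the m577 receptor, *sod-3* had 6.69, 7.28, 6.91, 6.93 and 7.50 in *daf-16; daf-2(m577)*, against 10.66, 10.96, 9.72, 10.73 and 11.03 in *daf-2(m577)*. These groups did not overlap either. The difference was -3.56 ± 0.25 (adjusted p = 1.56e-07), an 11.8-fold lower level (95% CI 8.19 to 17), with rank 11 from the lowest. The means without *daf-16*, 7.16 and 7.06, were close to the highest *Bacillus* value on any array, 7.15. They were above the highest value for dap, lys and trp, 6.29, and above the median of all *Bacillus* values, 4.72. Background may therefore limit the size of both falls, and how far was not tested.

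Between alleles, *sod-3* was higher in *daf-2(e1370)* than in *daf-2(m577)*, 11.91 ± 0.24 against 10.62 ± 0.52 (SD, n = 5). The difference of 1.29 ± 0.25 was the only one of the 5 genes to pass (adjusted p = 0.0158), a 2.44-fold higher level (95% CI 1.70 to 3.52). Of all probe sets, 0.727% were called higher in this comparison. The call was lost with cyclic loess normalization (1.13, adjusted p = 0.101) and with the number in the alternative sample names as a block (1.3, adjusted p = 0.205). The labels do not say what that number marks. Some of the numbers occur only in *daf-2(m577)*, so the block is partly tied to that genotype. Without *daf-16* the levels in the e1370 and m577 genotypes were 7.16 ± 0.49 and 7.06 ± 0.32, and they differed by 0.10 ± 0.25 (95% CI -0.43 to 0.62, adjusted p = 1). In order from high to low, *sod-3* ran from *daf-2(e1370)* through *daf-2(m577)* and *daf-16; daf-2(e1370)* to *daf-16; daf-2(m577)*, and only the arrays of the last pair overlapped.

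*sod-2*, the main mitochondrial enzyme, had levels of 10.66, 11.14, 10.83, 11.08 and 11.81 in *daf-16; daf-2(e1370)*, against 11.77, 10.98, 11.37, 11.66 and 11.85 in *daf-2(e1370)*. The groups overlapped widely. The difference was -0.42 ± 0.20 (95% CI -0.85 to 0.003, adjusted p = 0.452). With m577 it had 10.61, 10.14, 10.39, 10.30 and 10.90 in *daf-16; daf-2(m577)*, against 10.65, 10.80, 10.97, 10.64 and 10.88 in *daf-2(m577)*. Here too the arrays overlapped, and the difference was -0.32 ± 0.20 (95% CI -0.75 to 0.10, adjusted p = 0.499). With array quality weights both differences passed, at -0.66 (adjusted p = 0.0401) in e1370 and -0.43 (adjusted p = 0.00323) in m577. In m577 that setting called 6645 of all 22548 probe sets, where the main fit called 134 higher and 270 lower, so a pass there says little about *sod-2* itself.

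Between the receptor alleles *sod-2* did not pass either. With *daf-16* present *daf-2(e1370)* averaged 11.53 ± 0.35, against 10.79 ± 0.14 for *daf-2(m577)* (SD, n = 5), a difference of 0.74 ± 0.20 (95% CI 0.31 to 1.16, adjusted p = 0.0768). The arrays did not overlap, though the lowest of *daf-2(e1370)*, 10.98, was close to the highest of *daf-2(m577)*, 10.97. The difference passed without replicate 2 of *daf-2(e1370)* (0.87, adjusted p = 0.0436) and without replicate 5 of *daf-16; daf-2(e1370)* (adjusted p = 0.0377). The latter array is in neither genotype compared and enters only through the shared estimate of spread, so the difference stayed at 0.74. With the intestine covariate the difference was 0.42 and did not pass (adjusted p = 0.307). Without *daf-16* the means were 11.10 ± 0.44 in the e1370 genotype and 10.47 ± 0.30 in the m577 genotype, and the difference of 0.64 ± 0.20 did not pass (adjusted p = 1). In order from high to low came *daf-2(e1370)*, *daf-16; daf-2(e1370)*, *daf-2(m577)* and *daf-16; daf-2(m577)*, and the arrays of every neighbouring pair overlapped.

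Among the copper/zinc enzymes of the cytosol, *sod-1* fell in both alleles. Its levels were 12.09, 11.80, 11.97, 12.02 and 12.07 in *daf-16; daf-2(e1370)*, against 13.10, 12.49, 12.59, 12.44 and 12.85 in *daf-2(e1370)*. All arrays with *daf-16* were above all arrays without it. The difference was -0.71 ± 0.12 (adjusted p = 0.00131), a 1.63-fold lower level (95% CI 1.36 to 1.95). With m577, *sod-1* had 11.58, 11.89, 11.64, 11.84 and 11.82 in *daf-16; daf-2(m577)*, against 12.73, 12.88, 12.42, 12.62 and 12.66 in *daf-2(m577)*. These groups were apart as well. The difference was -0.91 ± 0.12 (adjusted p = 0.000371), a 1.88-fold lower level (95% CI 1.57 to 2.25), and its adjusted p was 0.0728 with the number in the alternative sample names as a block.

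*sod-1* gave no difference between the receptor alleles that passed. With *daf-16* present the means were 12.70 ± 0.28 in *daf-2(e1370)* and 12.66 ± 0.17 in *daf-2(m577)*, and the difference was 0.04 ± 0.12 (95% CI -0.22 to 0.30, adjusted p = 0.913). Without it they were 11.99 ± 0.12 and 11.75 ± 0.14 in the e1370 and m577 genotypes, with a difference of 0.24 ± 0.12 (95% CI -0.02 to 0.50, adjusted p = 1). The order therefore had both genotypes with *daf-16* on top, overlapping each other, and both without it below, again overlapping each other.

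*sod-5*, the minor cytosolic enzyme, fell in e1370. Its levels were 6.07, 7.12, 5.95, 6.10 and 5.87 in *daf-16; daf-2(e1370)*, against 9.05, 8.91, 8.78, 9.38 and 7.07 in *daf-2(e1370)*. Replicate 2 without *daf-16* was just above replicate 5 with it, and the other 4 arrays of each group lay far apart, at most 6.10 without *daf-16* and at least 8.78 with it. The difference was -2.42 ± 0.41 (adjusted p = 0.000958), a 5.34-fold lower level (95% CI 2.95 to 9.68). With m577 the levels were 5.92, 6.05, 6.12, 6.01 and 6.31 in *daf-16; daf-2(m577)*, against 8.08, 6.38, 7.79, 6.43 and 6.32 in *daf-2(m577)*. Of the 5 arrays with *daf-16*, replicates 1 and 3 were high and the other 3 lay just above the arrays without it. Replicates 1 and 3 also had the highest median *Bacillus* levels of all 20 arrays, 5.38 and 5.03, against at most 4.70 on the other 3. Their intestine marker means were the lowest of the genotype, 8.71 and 8.01, against at least 9.36. Whether either bears on *sod-5* was not tested. The *sod-5* difference was -0.92 ± 0.41 (95% CI -1.78 to -0.06) and did not pass (adjusted p = 0.342), although the *sod-5* groups did not overlap. Both means without *daf-16*, 6.22 and 6.08, were below the highest *Bacillus* value for dap, lys and trp. Background may therefore limit the sizes of these falls, and how far was not tested.

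The allele difference of *sod-5* with *daf-16* present lay just short of the threshold. Means were 8.64 ± 0.90 in *daf-2(e1370)* and 7.00 ± 0.86 in *daf-2(m577)* (SD, n = 5), and the difference was 1.64 ± 0.41 (95% CI 0.78 to 2.5, adjusted p = 0.0562). It passed when each array was centred on its median (1.70, adjusted p = 0.0449), when dim probe sets were left out (adjusted p = 0.0392), and without any one of 4 arrays. These were *daf-2(e1370)* replicate 5 (2.03, adjusted p = 0.00415), *daf-2(m577)* replicates 1 (1.91, adjusted p = 0.0328) and 3 (1.84, adjusted p = 0.0315), and *daf-16; daf-2(e1370)* replicate 2 (adjusted p = 0.0333). The last array is in neither genotype compared and enters only through the shared estimate of spread. The allele difference was smaller and did not pass with the alternative-name block (1.03, adjusted p = 0.325) or the intestine covariate (1.18, adjusted p = 0.194). The *daf-2(m577)* mean was itself below the highest *Bacillus* value, 7.15, though above the highest for dap, lys and trp, 6.29. Background may therefore limit this size too, and how far was not tested. Without *daf-16* the difference was 0.14 ± 0.41 (95% CI -0.72 to 1.00, adjusted p = 1). In the order *daf-2(e1370)*, *daf-2(m577)*, *daf-16; daf-2(e1370)* and *daf-16; daf-2(m577)*, all neighbouring pairs overlapped.

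*sod-4*, the extracellular copper/zinc enzyme, had levels of 7.56, 9.32, 7.46, 7.72 and 7.91 in *daf-16; daf-2(e1370)*, against 9.62, 9.55, 8.60, 8.43 and 8.33 in *daf-2(e1370)*. Replicate 2 without *daf-16* lay above 3 of the 5 arrays with it, and the remaining 4 lay below all arrays with *daf-16*. The difference was -0.91 ± 0.35 (95% CI -1.64 to -0.18) and did not pass (adjusted p = 0.22). Leaving out that 1 array gave -1.24 ± 0.29, which passed (adjusted p = 0.014). As that array lay against the difference, leaving it out had to enlarge the fall. No other fit without 1 array passed (limma, adjusted p up to 0.517). With m577 the levels were 8.50, 7.09, 7.68, 8.29 and 7.56 in *daf-16; daf-2(m577)*, against 7.82, 7.86, 7.62, 7.91 and 7.82 in *daf-2(m577)*. The second group was tight and lay inside the range of the first, with a difference of 0.02 ± 0.35 (95% CI -0.71 to 0.75, adjusted p = 0.985).

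With *daf-16* present, *sod-4* had means of 8.90 ± 0.63 in *daf-2(e1370)* and 7.80 ± 0.11 in *daf-2(m577)* (SD, n = 5), and no arrays overlapped. The difference of 1.10 ± 0.35 (95% CI 0.37 to 1.83) did not pass (adjusted p = 0.119). It passed with oocyte and sperm marker levels as covariates (1.24, adjusted p = 0.0213) and without replicate 2 of *daf-16; daf-2(e1370)* (adjusted p = 0.0402), an array that enters this comparison only through the shared estimate of spread. Without *daf-16* the difference was 0.17 ± 0.35 (95% CI -0.56 to 0.90, adjusted p = 1). Below *daf-2(e1370)*, the other 3 genotypes had means from 7.80 to 7.99, and their arrays overlapped.

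**Figure D2:**
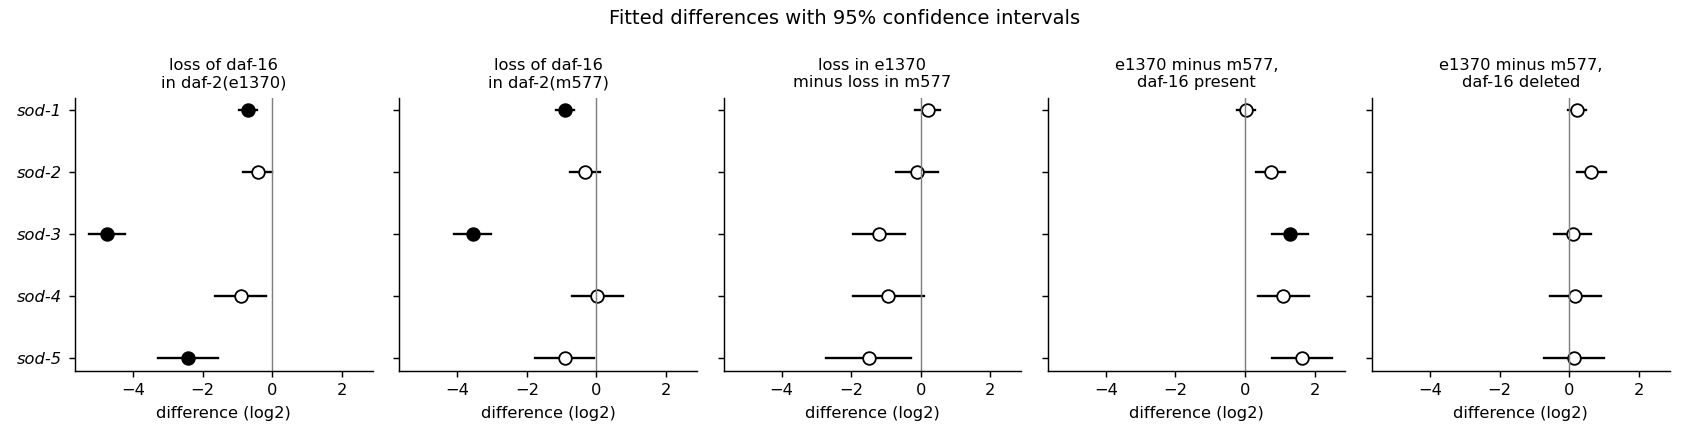
Differences of the 5 genes in each comparison (log2) with 95% confidence intervals from limma. Filled circles passed an adjusted p of 0.05 over all probe sets. The 5 comparisons run from left to right, with *sod-1* on top, and the intervals of *sod-3* in both loss comparisons lie below -3.03.

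Groups that did not overlap were counted apart from the test. Without *daf-16* against with it, this held for 2 of 5 genes in e1370 (3.78% of all probe sets) and 3 of 5 in m577 (6.66% of all probe sets). Between e1370 and m577 it held for 3 of 5 genes with *daf-16* present (3.02% of all probe sets) and 0 of 5 without it (0.648% of all probe sets). The median difference over the 5 genes was -0.91 in e1370 and -0.91 in m577, and over all probe sets it was 0.00 and -0.03. The 5 genes did not fall alike, with a range of -4.75 to -0.42 in e1370 and -3.56 to 0.02 in m577. The median was the value of *sod-4* in e1370, which did not pass, and of *sod-1* in m577.

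Whether the loss of *daf-16* had unequal effects in the 2 alleles was tested directly, as the difference between the differences. None of the 5 genes passed in limma, and 0.177% of all probe sets did. At an unadjusted p under 0.05 there were 2 of 5 genes, and 5.53% of all probe sets. For *sod-3* the fall was larger in e1370 by 1.19 on the log2 scale (-1.19 ± 0.36, 95% CI -1.94 to -0.45, adjusted p = 0.407), and for *sod-5* by 1.5 (-1.5 ± 0.58, 95% CI -2.71 to -0.29, adjusted p = 0.712). Without *daf-16* both genes had close means in e1370 and m577, near background. Their values here therefore largely repeat the allele differences with *daf-16* present, 1.29 for *sod-3* and 1.64 for *sod-5*. In the same test of unequal effects, *sod-4* had -0.93 ± 0.49 (adjusted p = 0.926), *sod-1* 0.20 ± 0.17 (adjusted p = 0.965) and *sod-2* -0.10 ± 0.29 (adjusted p = 0.98). The *sod-5* value ranged over the other settings from -2.15, which passed (array quality weights, adjusted p = 0.0038), to -0.89, which did not (alternative-name block, adjusted p = 0.788). With *daf-16* deleted, none of the 5 genes passed between e1370 and m577 in limma, where 0.00443% of all probe sets did. *sod-2* was the only one with an unadjusted p under 0.05 there (0.64 ± 0.20), as were 3.44% of all probe sets.

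**Figure D3:**
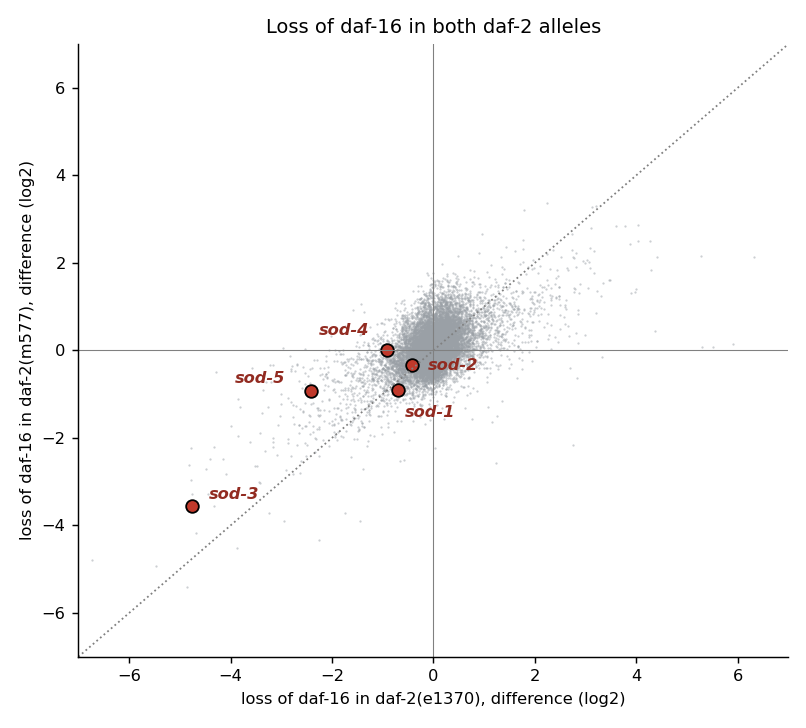
Difference on loss of *daf-16* in *daf-2(m577)* (vertical, log2) against that in *daf-2(e1370)* (horizontal, log2) for all 22548 probe sets (grey) and the 5 superoxide dismutase genes (red). The dotted line marks equal differences. *sod-3* is at -4.75 and -3.56, and *sod-4* is at -0.91 and 0.02.

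The calls were kept without the 3 arrays of lowest sperm marker level. There *sod-3* differed by -4.69 in e1370 and -3.79 in m577, *sod-1* by -0.79 and -0.97, and *sod-5* by -2.14 in e1370, and all 5 values passed (adjusted p at most 0.00965). Other measures of the arrays moved with the genotype. The level of 3' less that of 5' control probe sets for housekeeping genes, which rises as RNA degrades, ranged from 1.72 to 2.31 in *daf-16; daf-2(m577)* and from 1.19 to 1.61 in *daf-2(m577)*. With it as a covariate, *sod-3* differed by -3.28 (adjusted p = 0.000684) and *sod-1* by -1.01 (adjusted p = 0.0307) in m577. The ranges of the m577 genotypes did not overlap, so this covariate is partly tied to genotype and cannot be cleanly separated from it. The part of RNA quality in these differences was not tested further.

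Intestine markers ranged in mean level from 8.76 to 10.07 in *daf-16; daf-2(e1370)* and from 7.58 to 8.43 in *daf-2(e1370)*, with 6 of 11 called higher and 1 lower (1.98% and 2.40% of all probe sets). In m577 they ranged from 9.30 to 10.15 without *daf-16* and from 8.01 to 9.42 with it, with 3 called higher and 1 lower (0.594% and 1.20% of all probe sets). With the intestine mean as a covariate, a setting chosen after the data were seen, *sod-3* differed by -5.30 and *sod-1* by -0.99 in e1370, and both passed. *sod-5* differed by -1.69 ± 0.62, against -2.42 ± 0.41 in the main fit, and did not pass (adjusted p = 0.126). The intestine means of the 2 e1370 genotypes did not overlap, so this covariate is partly tied to genotype. The markers did not move as 1 group. In e1370 *pho-1* (3.47), *pept-1* (3.10) and *nhx-2* (3.08) had the largest rises and *ges-1* fell (-1.79). The transcription factor genes *elt-2* (0.16) and *elt-7* (0.20) did not pass. The mean is therefore not a plain measure of intestine content, and the part of intestine content in these results was not tested.

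Genes that act around the superoxide dismutases were called about as rarely as probe sets in general. The 7 lists held 55 genes, among them *daf-16* itself by its brightest probe set, 175823_s_at, which did not pass (-0.35 ± 0.38 in e1370). Its probe set 175678_at, called lower in e1370, was not counted here. Of the 55 genes, 1 fell and none rose on loss of *daf-16* in e1370 (limma), where 2.40% of all probe sets were called lower and 1.98% higher. In m577 none passed in either direction, where 1.20% and 0.594% of all probe sets did. The numbers at an unadjusted p under 0.05 were 4 of 55 genes in e1370 (11.3% of all probe sets) and 6 of 55 in m577 (13.1% of all probe sets). The gene that fell was *gpx-6*, a glutathione peroxidase homologue, with 7.09 ± 1.27 in *daf-16; daf-2(e1370)*, against 9.07 ± 1.00 (SD, n = 5) in *daf-2(e1370)*, a difference of -1.98 ± 0.51 (adjusted p = 0.0313). In m577 it differed by -0.69 ± 0.51 (adjusted p = 0.567). The other 7 of 8 glutathione peroxidases did not pass in e1370, and the list had medians of -0.18 in e1370 and -0.17 in m577.

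Other enzymes of peroxide removal had no calls. *ctl-2*, the peroxisomal catalase and the only 1 of 3 catalase genes with a probe set of its own, differed by -0.39 ± 0.31 in e1370 (adjusted p = 0.981) and -0.26 ± 0.31 in m577 (adjusted p = 0.73). Of 3 peroxiredoxins, the mitochondrial *prdx-3* had -0.26 ± 0.13 (adjusted p = 0.534) and *prdx-2* 0.17 ± 0.16 (adjusted p = 1) in e1370. The 11 genes for thioredoxin and glutathione supply had medians of 0.10 in e1370 and 0.33 in m577. The extremes were *trx-1*, a thioredoxin, at -0.89 ± 0.29 in e1370 (adjusted p = 0.109), and *glrx-5*, a glutaredoxin, at 0.99 ± 0.32 in m577 (adjusted p = 0.146).

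Enzymes of this family need copper, zinc or manganese. The 8 genes for copper and manganese supply had medians of -0.03 in e1370 and 0.33 in m577, and their largest difference was that of the copper chaperone gene *cuc-1* in m577, 1.19 ± 0.40 (adjusted p = 0.178). The 10 genes for sources of superoxide, mostly subunits of the respiratory chain, had medians of -0.20 and 0.03. *cyc-1*, cytochrome c1, had -0.44 ± 0.18 in e1370 (adjusted p = 0.302) and 0.41 ± 0.18 in m577 (adjusted p = 0.351). The largest difference of this list was that of *bli-3* in m577, -0.49 ± 0.50 (adjusted p = 0.674). Among 14 regulators, *daf-16* included, the medians were 0.08 and 0.09. Their largest differences were those of *hcf-1*, a nuclear cofactor of DAF-16, at 1.06 ± 0.59 in m577 (adjusted p = 0.453), and of *smk-1*, another cofactor, at 0.52 ± 0.67 (adjusted p = 0.745). *mdt-15*, a Mediator subunit named after its values were seen, had the lowest adjusted p of the list in m577 (-0.48 ± 0.14, adjusted p = 0.0984).

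**Figure D4:**
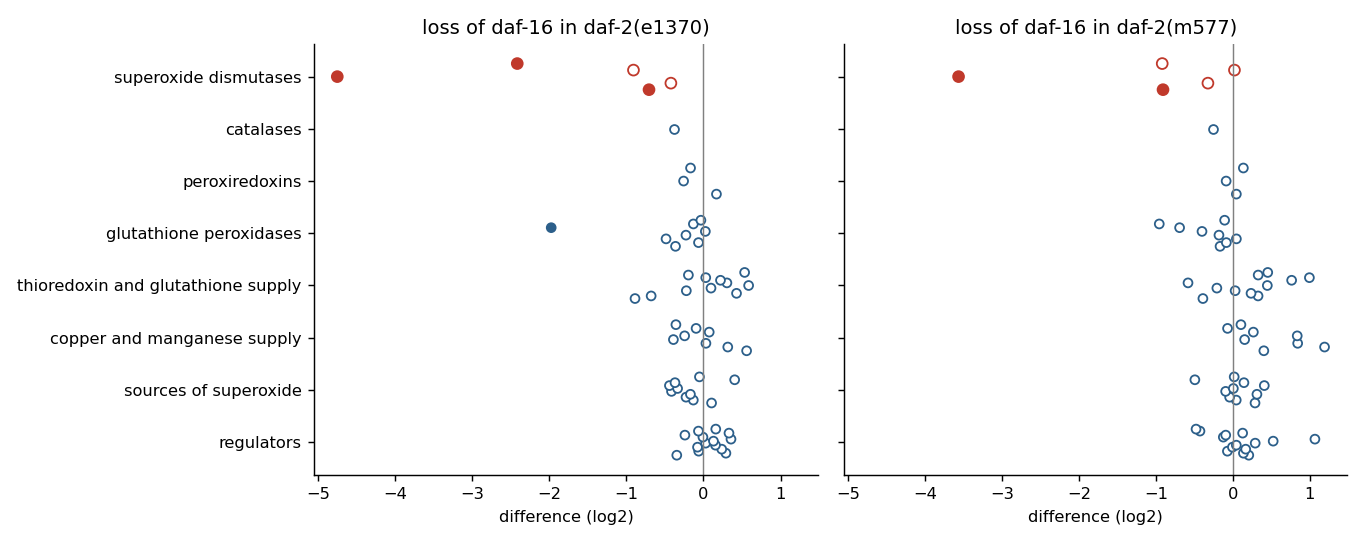
Differences on loss of *daf-16* (log2) for the 5 superoxide dismutase genes (red) and the 55 genes of 7 lists (blue) in each receptor allele. Filled circles passed an adjusted p of 0.05. Apart from the superoxide dismutases, *gpx-6* at -1.98 in e1370 is the only filled circle.

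The genes next to the superoxide dismutases on their chromosomes were measured too. *sod-1* and *sod-5* lie on chromosome II, *sod-2* on I, *sod-3* on X and *sod-4* on III in the RefSeq table for WBcel235. Of the 2 nearest protein-coding genes on each side of each gene, 20 in all, 19 were measured, and none passed in either allele in limma, where 1.98% of all probe sets were called higher and 2.40% lower in e1370, and 0.594% and 1.20% in m577. At an unadjusted p under 0.05 there were 1 of 19 in e1370 (11.3% of all probe sets) and 2 of 19 in m577 (13.1% of all probe sets), so their number is near that of the background. The largest differences were that of *C08A9.3* beside *sod-3* in e1370, -0.83 ± 0.39 (adjusted p = 0.414), and that of *F10D11.3* near *sod-2* in m577, 0.99 ± 0.59 (adjusted p = 0.483).

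Likeness of pattern was measured by Pearson's r over the 20 arrays against 10435 genes above background, as a description, since all points of a genotype share its mean. *sod-3* was most like *Y9C9A.16* (r = 0.987), *Y69H2.3* (0.977), the ferritin gene *ftn-1* (0.975), the claudin-like *clc-24* (0.971) and *D1086.9* (0.966). After the genotype means were subtracted these values were 0.643, 0.65, 0.478, 0.248 and -0.055. *sod-1* was most like *sqrd-1*, a sulfide:quinone oxidoreductase (0.94), *Y69H2.3* (0.928), *chil-8* (0.924), *tat-4* (0.92) and *clec-76* (0.92). *Y69H2.3* thus stood in both sets, and *sod-1* and *sod-3* had r = 0.909 with each other.

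For *sod-5* the most alike genes were the collagen *col-50* (0.964), the saposin-like *spp-12* (0.955), *T27F6.8* (0.928), the arrestin domain gene *arrd-11* (0.926) and *ZK355.3* (0.922). For *sod-2* they were the glutathione S-transferase *gst-1* (0.961), *ZK353.9* (0.912), *aps-1* (0.899), *tmed-1* (0.892) and *tsr-2* (0.892). For *sod-4* they were *sid-5* (0.944), *Y57G11B.2* (0.934), *F26A3.1* (0.93), *B0563.5* (0.925) and the galectin *lec-7* (0.924). After the genotype means were subtracted, r was 0.331 to 0.664 for the genes named beside *sod-1*, 0.706 to 0.873 for *sod-5*, 0.818 to 0.911 for *sod-2* and 0.865 to 0.933 for *sod-4*. Over all 10435 genes the median r lay between -0.059 and -0.022 for each of the 5.

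Within genotypes, deviations from the genotype mean were compared between the 5 genes and with 3 measures of the arrays, 25 relations in all, by permutation within genotypes. None of the 10 pairs of superoxide dismutase genes passed after adjustment. The strongest was *sod-1* with *sod-3* (r = 0.419, p = 0.051, Spearman's rho = 0.361, p = 0.112, adjusted p = 0.255 and 0.548, permutation test over 20 arrays, and r = 0.423 without the 2 arrays farthest from the median). *sod-3* and the sperm marker level had the largest r (r = 0.759, p = 0.00526, rho = 0.549, p = 0.0303, permutation test), which did not pass after adjustment (adjusted p = 0.0657 and 0.331). That r was 0.523 without the 2 farthest arrays. With the oocyte and germ cell marker level *sod-3* had a negative r (r = -0.679, p = 0.00507, rho = -0.576, p = 0.018, adjusted p = 0.0657 and 0.331, permutation test, and r = -0.518 without the 2 farthest arrays). *sod-4* had r = -0.594 with the same markers (p = 0.0147, rho = -0.493, p = 0.0397, adjusted p = 0.123 and 0.331, permutation test, and r = -0.476 without the 2 farthest arrays). With both marker levels as covariates, *sod-3* differed by -4.74 in e1370 and -3.72 in m577 on loss of *daf-16*, and both passed. *sod-5* differed by -0.09 in m577 in that fit (adjusted p = 0.985), against -0.92 without the covariates, and by -1.66 with the alternative-name block (adjusted p = 0.296).

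**Figure D5:**
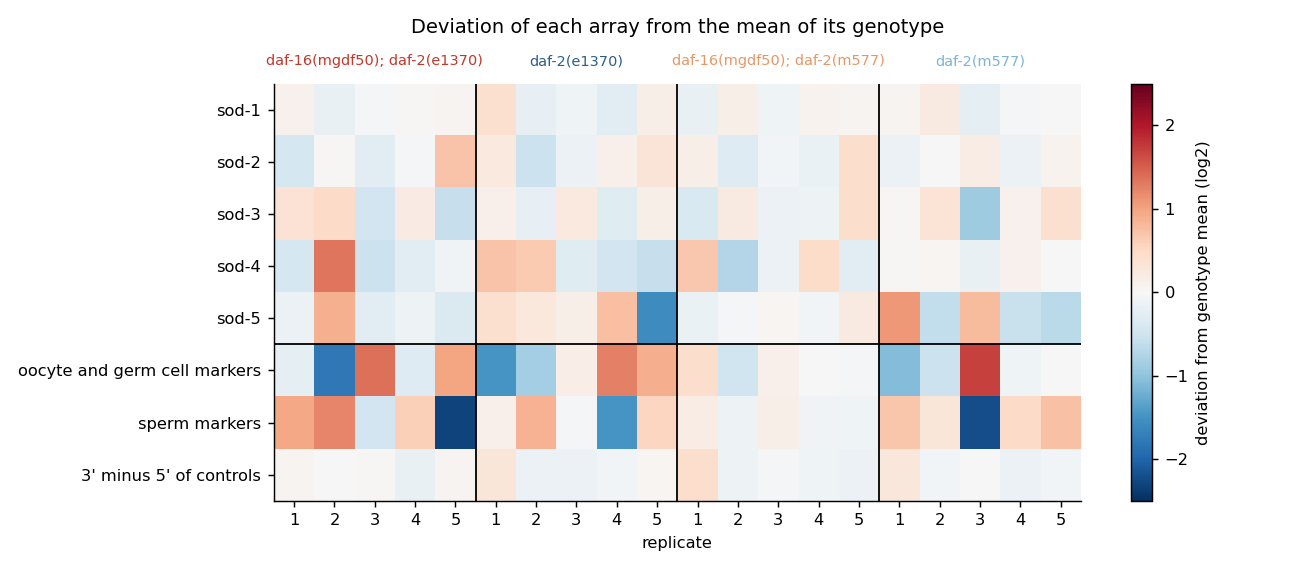
Deviation of each array (columns, replicate 1 to 5 of each genotype) from the mean of its genotype (log2) for the 5 genes and for the mean level of oocyte and germ cell markers, of sperm markers and the 3' minus 5' difference of control probe sets. Replicate 2 of *daf-16; daf-2(e1370)* is high in *sod-4* and *sod-5* and low in oocyte and germ cell markers. Replicate 3 of *daf-2(m577)* is low in *sod-3* and sperm markers.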

How the data were processed

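Per the labels, the authors read the images with Microarray Suite 5.0 and ran RMA on the 20 arrays jointly, using version 1.4.14 of the Affymetrix package for R. The deposited values are log2 expression, a scale read from their range. The scanner images were not used here. RMA usually includes quantile normalization, so a change in total RNA would not be seen.

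Of 22625 probe sets, 77 controls were left out and 22548 tested. Per the array annotation, 20766 had 1 symbol, 887 several and 895 none, and 20701 matched RefSeq genes (WBcel235) by gene identifier. A gene in a list stood by its brightest probe set with 1 symbol.

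The main model was fitted in limma 3.58.1 under R 4.3.3 (lmFit, contrasts.fit, eBayes) with a mean for each genotype, no covariates and 5 comparisons, 2-sided. All 20 arrays shared its estimate of spread. Differences are *daf-16; daf-2* minus *daf-2*, or e1370 minus m577. P-values were adjusted by Benjamini-Hochberg over all tested probe sets. The fit was tested on simulated data. Correlations used 100000 permutations within genotypes. Figures were drawn with matplotlib 3.10.9.

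The genes, lists and settings were chosen with earlier results of these data known. All superoxide dismutase probe sets were named, with *daf-16*, list members that passed or had the largest differences, and the 5 most alike genes each. Chromosome neighbours and the intestine covariate were added later. Sequences were not used here.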

Additional observations from a re-analysis of the deposited data

Results flagged for a closer look

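Within a genotype, 4 of 20 groups of 5 arrays held an array far from the rest by Dixon's test, which chance gives in about 1 group of 20. Replicate 2 of *daf-16; daf-2(e1370)* was the highest of its group in *sod-4* (9.32, next 7.91) and in *sod-5* (7.12, next 6.10). Replicate 5 of *daf-2(e1370)* was the lowest in *sod-5* (7.07, next 8.78), and replicate 3 of *daf-2(m577)* the lowest in *sod-3* (9.72, next 10.66). The call of *sod-5* on loss of *daf-16* in e1370 was kept in all 20 fits that left out 1 array (adjusted p at most 0.00384 in limma). Without replicate 3 of *daf-2(m577)* the *sod-3* difference between *daf-2(e1370)* and *daf-2(m577)* was 1.07 (adjusted p = 0.0197).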

How the results depend on the processing

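The calls of *sod-1* and *sod-3* in e1370 and of *sod-3* in m577 were kept in all 12 other settings, with *sod-3* between -5.30 and -4.63 in e1370 and between -3.91 and -3.28 in m577, and in all 20 fits without 1 array, with adjusted p at most 0.00457. *sod-5* in e1370 lost its call with the intestine covariate (-1.69), which was chosen after the data were seen, and *sod-1* in m577 with the alternative-name number as a block (-0.98). That block is partly tied to *daf-2(m577)*, since some of its numbers occur only there, and what the number marks is unknown. Numbers in the titles were not taken as pairing. Deviations from the genotype mean had r above 0.1 in 14 of 30 same-numbered pairs across genotypes. Their median was 0.083, against -0.035 for 120 differently numbered pairs, and these values do not settle whether arrays were paired. The fit with the replicate block changed no call of the 5 genes. It gave 3 calls in all between alleles without *daf-16*, against 1. Between alleles with *daf-16*, *sod-3* was not called with cyclic loess (1.13) or the alternative-name block (1.3). *sod-5* was called there with median centring (1.70), without dim probe sets (1.64), with array quality weights (2.18) and with oocyte and sperm covariates (1.84), *sod-2* with quality weights (0.83) and those covariates (0.76), and *sod-4* with those covariates (1.24). Quality weights also called *sod-2* in e1370 (-0.66) and m577 (-0.43) and the *sod-5* difference between losses (-2.15). For these, the cause was not tested.

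Signs turned only where no call was made. *sod-4* in m577 became -0.0783 with cyclic loess, -0.28 with the alternative-name block, -0.54 with the 3' minus 5' covariate and -0.0271 without the 3 low-sperm arrays. *sod-2* became 0.0818 in e1370 with the intestine covariate, and its difference between losses became 0.0581 with cyclic loess, 0.0871 with the 3' minus 5' covariate and 0.16 with the intestine covariate. Between alleles, *sod-1* with *daf-16* became -0.0201 with quality weights and -0.0238 with the alternative-name block, and without *daf-16* *sod-4* became -0.20 with quality weights, *sod-3* -0.11 with the 3' minus 5' covariate and *sod-5* -0.29 with oocyte and sperm covariates.

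Probe sets called on loss of *daf-16* in e1370 numbered 987, and 507 when fitted on the compared genotypes alone. In m577 they numbered 404, against 6645 with quality weights, 780 on the compared genotypes, 105 with the alternative-name block, 58 with the 3' minus 5' covariate and 1046 with the intestine covariate. For the difference between losses they were 40, against 1113, 6 (alternative-name block), 16 (3' minus 5'), 110 (oocyte and sperm) and 90 (intestine). Between alleles with *daf-16* they were 297, against 2611 (weights), 176 (compared genotypes), 30 (alternative-name block), 1495 (oocyte and sperm) and 161 (intestine), and without *daf-16* 1, against 99 (weights), 4 (oocyte and sperm), 2 (intestine), 3 (replicate block) and 0 with cyclic loess, the compared genotypes, the alternative-name block and the 3' minus 5' covariate.

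Without 1 array at a time, calls ranged from 257 to 527 in m577, 24 to 71 for the difference between losses, 121 to 695 between alleles with *daf-16* and 0 to 5 without it. *sod-4* ranged from -1.24 to -0.73 in e1370 and from -0.15 to 0.20 in m577, and the *sod-2* difference between losses from -0.28 to 0.0127. Between alleles with *daf-16*, *sod-1* ranged from -0.066 to 0.0993, *sod-2* from 0.66 to 0.87, *sod-4* from 0.92 to 1.24 and *sod-5* from 1.45 to 2.03. Without *daf-16*, *sod-3* ranged from -0.0213 to 0.24, *sod-4* from -0.16 to 0.34 and *sod-5* from -0.083 to 0.23. The planned change of promoter window was not run, as sequences were not used here. Signals near background may limit the low values of *sod-5* and *sod-3*, and 5 arrays a genotype limit all others.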
